A study of Drosophila melanogaster with 24 samples.

Results

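The genes described here encode the embryonic linker histone of *Drosophila* (*BigH1*), the HMG-box proteins HMG-D and HMG-Z (*HmgD*, *HmgZ*), the H2A variant (*His2Av*), the H3.3 variant, which has a pair of genes (*His3.3A*, *His3.3B*), a histone H4 gene outside the histone cluster (*His4r*) and the centromeric H3 variant (*cid*). These 8 genes were chosen by name from the 17370 genes of the count table. RNA-seq libraries were made from single whole embryos of wild type (*OrR*, Oregon-R) and of AcfC, a deletion of *Acf* made with Cas9. The line was made in a *yw* strain with Cas9, crossed to *w1118*, backcrossed to *yw* and later backcrossed to *OrR* for 8 generations. How much DNA of the earlier strains remains, also near *Acf*, was not tested. AcfC is a single deletion line, in which most of the gene was replaced by a red fluorescent marker, so that ACF1 is missing from every cell of the embryo and from the egg. Each genotype was sampled as 6 embryos of Bownes Stage 3 (about 1 h old, before zygotic genome activation, ZGA) and 6 of Bownes Stage 8 (about 4 h old, after ZGA), picked by their look under the microscope. AcfC replicate 2 of Stage 3 was left out as improperly staged, so that this group has 5 embryos in the comparisons.

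Before ZGA, an early fly embryo divides its nuclei quickly and lives on RNA and protein laid down by the mother. Its chromatin is then known to lack somatic histone H1, and BigH1 and HMG-D occupy the linker DNA until H1 takes their place. Replicative histones are made in S phase from many gene copies, whereas histone variants come from genes outside that cluster and can be placed into chromatin independently of replication. ACF1, the product of *Acf*, is the signature subunit of the nucleosome remodelers ACF and CHRAC, which space nucleosomes.

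In the coordinates of the BDGP6 assembly, *BigH1* (FBgn0038252) lies on chromosome arm 3R from 14663450 to 14664822, and *His4r* (FBgn0013981) lies 36836 bases away on the same arm, from 14625755 to 14626614. *HmgD* (FBgn0004362, 2R, 21701458 to 21716727, plus strand) and *HmgZ* (FBgn0010228, 2R, 21697488 to 21707861, minus strand) are neighbours whose spans share 6404 bases but no exon base. *His2Av* (FBgn0001197) lies on 3R from 26866929 to 26869220, *His3.3A* (FBgn0014857) on 2L from 5055058 to 5056149, *His3.3B* (FBgn0004828) on X from 9152523 to 9156669 and *cid* (FBgn0040477) on 2R from 13485617 to 13486631. The libraries were nondirectional, and 168 of the 1002 exon bases of *His3.3A* (16.8%) are shared with *Nepl3* on the other strand, so that reads there cannot be assigned to a strand.

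Embryos had totals of 4213692 to 11935129 counts, and protein-coding genes took 2030997 to 7639980 of them. Levels are given as CPM, the count scaled to the effective size of the library, on a scale common to all 24 embryos. *Acf* itself had 601 to 670.4 CPM in wild-type and 99.0 to 135 CPM in AcfC embryos at Stage 3, and 479 to 509 against 40.7 to 67.3 CPM at Stage 8, so that the genotypes never overlapped. The deletion leaves the UTRs of *Acf* in place. All 10 maternal stage markers (among them *swa*, *smg* and *gnu*) were called lower at Stage 8 in both genotypes by the edgeR test at an adjusted p under 0.1, and the 11 zygotic markers in the table (among them *twi* and *sog*) summed to at most 28.2 CPM at Stage 3 and at least 1431 CPM at Stage 8 in the embryos compared.

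From Stage 3 to Stage 8, the linker-binding genes moved in opposite directions. *BigH1* RNA fell to a small part of its level before ZGA, *HmgZ* RNA went from almost no reads to more than 200 CPM, and *HmgD*, *His2Av*, *His3.3A*, *His3.3B* and *His4r* RNA rose 2.01- to 3.56-fold in both genotypes. *cid* RNA fell in wild type, and in AcfC its change did not pass the test. In wild type all 8 genes were called, 6 higher and 2 lower, among 7136 of the 8103 genes tested (88.1%; 48.5% were called higher and 39.6% lower). In AcfC, 7 of the 8 were called, 6 higher and 1 lower, among 7617 of 8836 genes (86.2%; 51.5% higher and 34.7% lower). The median log2 fold change of the 8 genes was 1.22 in wild type and 1.16 in AcfC, where that of all genes tested was 0.20 and 0.40. With nearly 9 in 10 genes called, a call alone does not set these genes apart, and the sizes of the changes carry the description. The share of all genes without overlap between groups was not counted, so that a lack of overlap does not set these genes apart either. RNA of a whole embryo was measured, so that a change in the number of cells that hold an RNA and a change in RNA per cell cannot be told apart, and directions between stages are relative to the scaling of the libraries. The sex of the single embryos was not used here, and *His3.3B* lies on X.

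**Figure D1:**
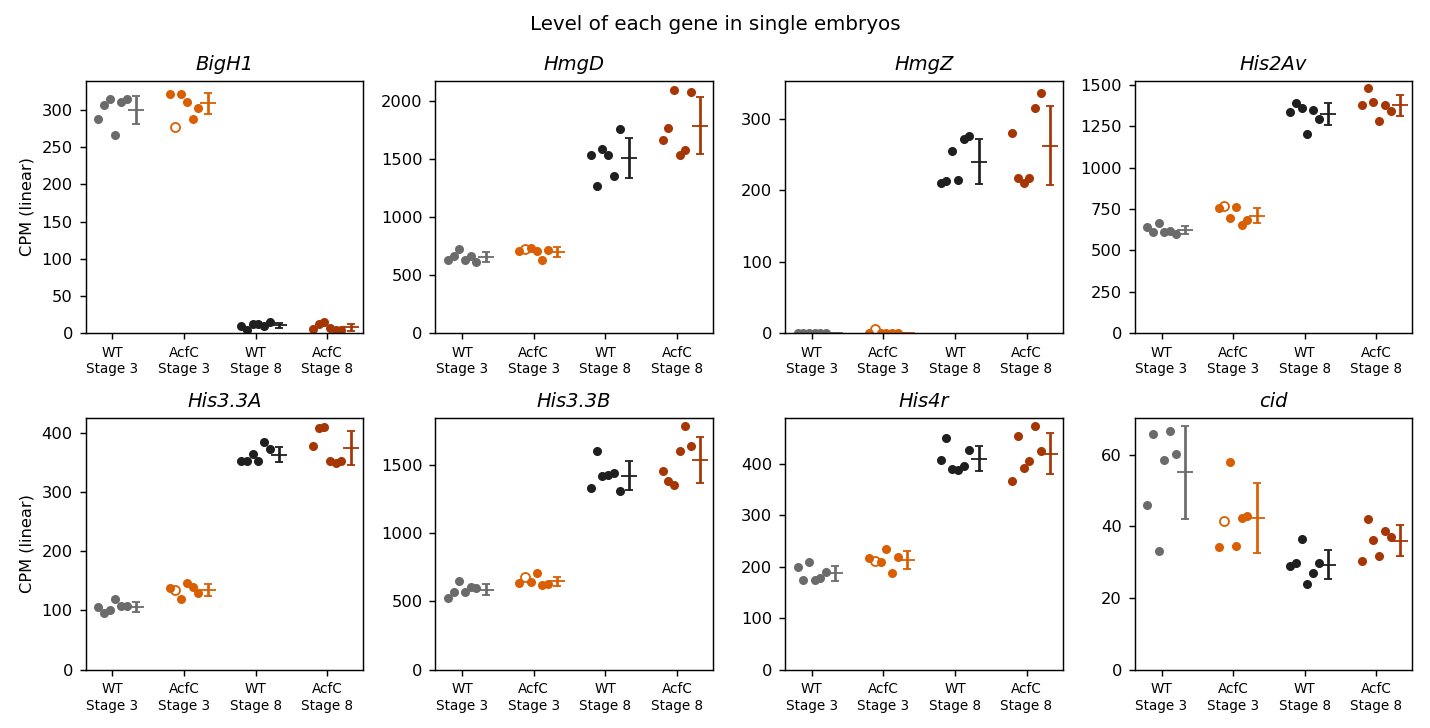
CPM of each of the 8 genes (linear axes from 0) in single embryos of the 4 groups, with replicates 1 to 6 from left to right; bars give the mean and SD, and the open circle is AcfC replicate 2 of Stage 3, which is not in the mean. *BigH1* stood at 267 to 322 CPM in the embryos compared at Stage 3 and at 3.67 to 14.9 CPM at Stage 8, *HmgZ* was at 0.66 CPM or less at Stage 3 in the embryos compared, and *cid* in wild type ran from 33.1 to 66.5 CPM at Stage 3.

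*BigH1*, the linker histone of the early embryo and the germline, ranged in wild type at Stage 3 from 267 to 315 CPM with a median of 308. The 5 AcfC embryos of that stage had 322, 321, 311, 288 and 302 CPM. At Stage 8 the lowest, median and highest embryos were at 4.2, 10.8 and 14.4 CPM in wild type and at 3.67, 6.14 and 14.9 CPM in AcfC. Every embryo of Stage 8 thus lay below every embryo of Stage 3. The log2 fold change was −4.79 in wild type (SE 0.16, adjusted p = 1.56e-13), a 27.6-fold lower level. In AcfC it was −5.15 (SE 0.27, adjusted p = 3.72e-10), a 35.6-fold lower level. Few reads stand behind the Stage 8 values, 14 to 60 in a wild-type embryo and 10 to 83 in an AcfC embryo.

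*HmgD* encodes an HMG-box protein that binds and bends linker DNA. Its wild-type level went from 609, 649 and 728 CPM (lowest, median and highest embryo) at Stage 3 to 1272, 1536 and 1764 CPM at Stage 8. In AcfC the 5 embryos of Stage 3 had 706, 736, 709, 632 and 717 CPM, and those of Stage 8 ranged from 1540 to 2100 with a median of 1719 CPM. No embryo of either stage overlapped with the other stage. The rise was 2.39-fold in wild type (log2 fold change 1.26, SE 0.073, adjusted p = 1.43e-10) and 2.65-fold in AcfC (1.41, SE 0.091, adjusted p = 4.21e-09).

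*HmgZ*, the close relative next to *HmgD*, was nearly without reads before ZGA. The 6 wild-type embryos of Stage 3 held 10 reads of it in all and the 5 AcfC embryos held 9, and in each genotype the highest embryo reached 0.52 and 0.66 CPM, respectively. At Stage 8 the lowest, median and highest embryos had 211, 235 and 276 CPM in wild type and 211, 249 and 336 CPM in AcfC. The ratio of the summed reads, scaled for depth, was 935 in wild type (exact 95% interval 508 to 1951) and 821 in AcfC (432 to 1797), where the intervals cover counting error only. The edgeR log2 fold changes were 9.80 (SE 0.24, adjusted p = 3.56e-15) and 9.64 (SE 0.28, adjusted p = 9.73e-13). Of all genes tested, 98.6% in wild type and 98.7% in AcfC had a lower log2 fold change than *HmgZ*. The filter on zeros would have kept *HmgZ* in AcfC through its Stage 8 embryos alone. The other genes had reads in every embryo.

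*His2Av* encodes the H2A variant that in flies does the work of both H2A.Z and H2A.X. It was at 599.9, 616 and 665 CPM (lowest, median and highest) in wild type at Stage 3 and at 1204, 1342 and 1393 CPM at Stage 8. AcfC embryos had 757, 697, 760, 655 and 685 CPM at Stage 3 and between 1285 and 1480 CPM, with a median of 1378, at Stage 8. The stages did not overlap in either genotype. *His2Av* rose 2.20-fold in wild type (log2 fold change 1.14, SE 0.051, adjusted p = 5.21e-12) and 2.01-fold in AcfC (1.01, SE 0.066, adjusted p = 4.60e-09).

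The genes of H3.3, the variant placed into chromatin outside of replication, both rose, *His3.3A* from a lower level. *His3.3A* went from 95.5, 106 and 119.6 CPM (lowest, median and highest wild-type embryo) to 352, 358 and 384 CPM, a 3.56-fold rise (log2 fold change 1.83, SE 0.065, adjusted p = 3.21e-13). In AcfC it went from 137, 120.0, 146, 140.1 and 130 CPM in the 5 embryos to between 348 and 409.5 CPM with a median of 365, a 2.88-fold rise (1.53, SE 0.082, adjusted p = 5.29e-10). *His3.3B* was at 528, 586 and 647 CPM in wild type at Stage 3 and at 1306, 1422 and 1602 CPM at Stage 8. It rose 2.52-fold (1.33, SE 0.066, adjusted p = 2.17e-11). Its AcfC embryos had 638, 639.6, 709, 622 and 625.2 CPM at Stage 3 and 1353 to 1783 CPM, with a median of 1527, at Stage 8. That rise was 2.46-fold (1.30, SE 0.085, adjusted p = 4.52e-09). For both genes and in both genotypes, every Stage 8 embryo lay above every Stage 3 embryo.

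*His4r* makes histone H4 from a gene outside the histone cluster. Its lowest, median and highest wild-type embryos were at 174, 183 and 209.8 CPM at Stage 3 and at 389, 402 and 449.8 CPM at Stage 8, without overlap. The 5 AcfC embryos of Stage 3 had 217, 209.8, 235, 188 and 219 CPM, and those of Stage 8 had 366 to 475 CPM with a median of 415. The rise was 2.27-fold in wild type (log2 fold change 1.18, SE 0.065, adjusted p = 7.85e-11) and 2.03-fold in AcfC (1.02, SE 0.086, adjusted p = 6.63e-08).

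*cid*, the CENP-A of flies, marks the centromere. In wild type it was at 33.1, 59.4 and 66.5 CPM (lowest, median and highest) at Stage 3 and at 24.0, 29.4 and 36.5 CPM at Stage 8. All but 1 embryo of each stage lay outside the range of the other stage. The fall was 1.80-fold (log2 fold change −0.85, SE 0.15, adjusted p = 8.60e-05). In AcfC the 5 embryos of Stage 3 had 34.3, 58.1, 34.4, 42.2 and 42.8 CPM, and those of Stage 8 ranged from 30.2 to 41.9 CPM with a median of 36.7. The ranges overlapped, and the log2 fold change of −0.18 (SE 0.14, adjusted p = 0.242) did not pass the test. Its sign turned to 0.090 with upper-quartile scaling, and with library totals alone the value was −0.33 (adjusted p = 0.048).

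**Figure D2:**
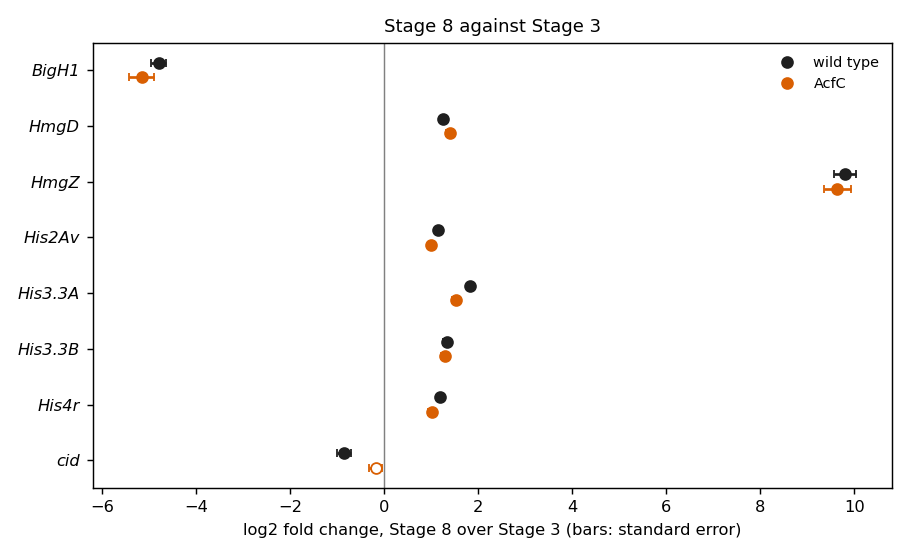
Log2 fold change of the 8 genes, Stage 8 over Stage 3, in wild type and AcfC (edgeR; bars are standard errors; filled points have an adjusted p under 0.1, the open point does not). *BigH1* (−4.79 and −5.15) and *HmgZ* (9.80 and 9.64) stand far from the 5 genes between 1.01 and 1.83, and *cid* in AcfC (−0.18) is the open point.

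Between genes, levels were compared as CPM per kb of exon. For *His3.3A* that length includes the 168 bases shared with *Nepl3*. In wild type at Stage 3, *His2Av* had the highest mean level (511 ± 19.4 CPM per kb, SD, n = 6), followed by *HmgD* (333 ± 21.4). *His4r* (236 ± 18.8), *BigH1* (235 ± 14.9) and *His3.3B* (230.2 ± 15.8) came next, and single embryos of these neighbours overlapped, so that their order is not set. *His3.3A* (106 ± 8.11), *cid* (54.2 ± 12.9) and *HmgZ* (0.16 ± 0.15) were lower, each without overlap with the next. The AcfC embryos of Stage 3 gave the same order but for *His3.3B* and *BigH1*, which overlapped. At Stage 8 in wild type the order was *His2Av* (1081 ± 54.2), *HmgD* (767 ± 88.7), *His3.3B* (557 ± 40.9), *His4r* (515 ± 30.2), *His3.3A* (362 ± 12.9), *HmgZ* (149.8 ± 19.3), *cid* (28.9 ± 4.07) and *BigH1* (8.04 ± 2.77). *BigH1* had thus gone from a place among the middle genes to the last. Only *His3.3B* and *His4r* overlapped in that group. In AcfC at Stage 8 *His2Av* (1126 ± 52.6) and *HmgD* (911 ± 125) overlapped as well, and *HmgD* came first when the longest transcript was used for the length.

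**Figure D3:**
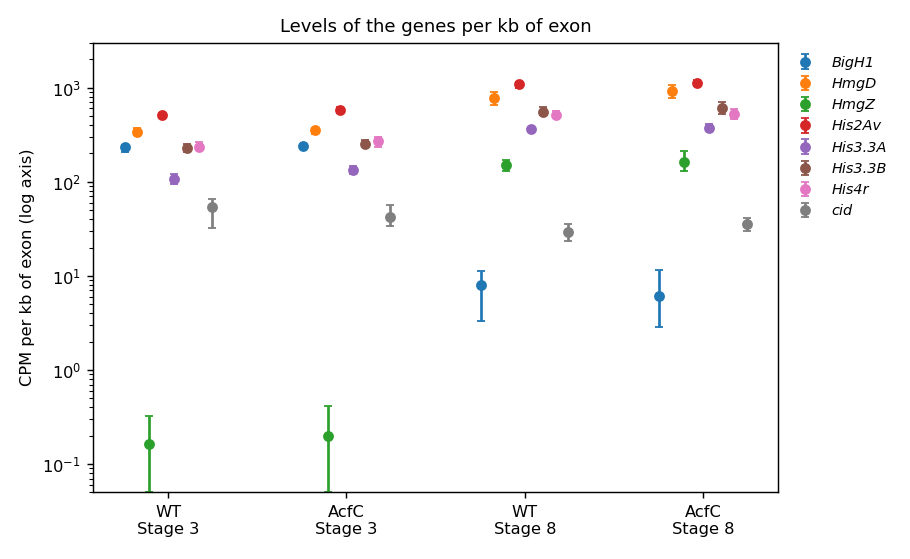
Mean CPM per kb of exon of the 8 genes in the 4 groups on a log axis, with bars from the lowest to the highest embryo (bars that reach 0 are drawn to the bottom of the axis). In wild type *BigH1* fell from 235 to 8.04 and *HmgZ* rose from 0.16 to 149.8 CPM per kb, and the means of the 5 other genes apart from *cid* lay between 106 and 1126 in all groups.

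Within pairs of related genes the makeup also moved with the stage. *HmgZ* made up 0.049% ± 0.045 (SD, n = 6) of the summed level per kb of *HmgD* and *HmgZ* in wild type at Stage 3 and 16.4% ± 1.94 (SD, n = 6) at Stage 8. In AcfC its share was 0.055% ± 0.042 (SD, n = 5) and 15.3% ± 3.08 (SD, n = 6). The share of *His3.3A* in the H3.3 pair was 31.5% ± 2.38 in wild type at Stage 3, 34.7% ± 1.52 in AcfC at Stage 3, 39.5% ± 2.07 in wild type at Stage 8 and 38.5% ± 4.28 in AcfC at Stage 8. In wild type all 6 embryos of Stage 8 (35.9 to 42.0%) lay above all 6 of Stage 3 (28.3 to 34.7%). In AcfC the stages overlapped (33.2 to 43.5% against 32.3 to 36.5%). The summed level of the pair was 312 to 354 CPM per kb in wild type and 370.4 to 424 in AcfC at Stage 3, without overlap, and 873 to 979.6 against 939 to 1046 at Stage 8, with overlap.

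**Figure D4:**
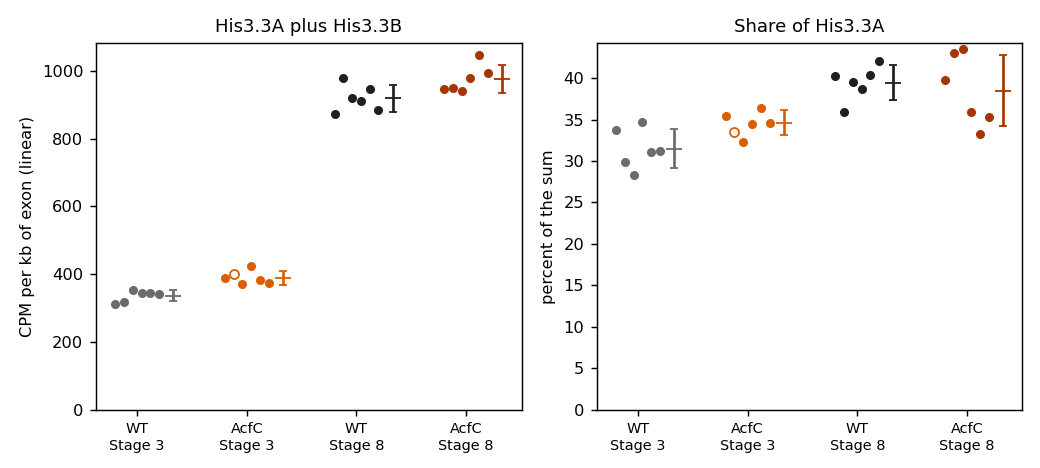
Left, summed level of *His3.3A* and *His3.3B* in CPM per kb of exon; right, percent of that sum that comes from *His3.3A*; each point is an embryo (replicates 1 to 6 from left to right, open circle AcfC replicate 2 of Stage 3, not in the mean) and bars are mean and SD. The wild-type share was 28.3 to 34.7% at Stage 3 and 35.9 to 42.0% at Stage 8, and at Stage 3 all 5 AcfC sums lay above all 6 wild-type sums.

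The comparison of AcfC with wild type asks what changes in these genes when ACF1 is missing. Before ZGA, *His3.3A* and *His2Av* RNA were higher in AcfC, by 1.28-fold and 1.14-fold, and the other 6 genes did not pass the test. These are 2 called genes of 8, both higher, where 877 of the 7303 genes tested were called (12.0%; 6.35% higher and 5.66% lower). The median log2 fold change of the 8 genes was 0.17, against −0.0031 over all genes tested. For *His3.3A*, the AcfC embryos (120.0 to 146 CPM) all lay above the wild-type embryos (95.5 to 119.6 CPM), although the gap between the groups was narrow. How many of all genes tested separate in this way was not counted. The log2 fold change of *His3.3A* was 0.35 (SE 0.065, adjusted p = 0.00561), and it stayed between 0.32 and 0.40 with each embryo left out in turn. *Nepl3*, which shares exon bases with *His3.3A* on the other strand, had a median of 43.1 CPM in wild type and 42.1 CPM in AcfC at that stage. These are levels of the whole gene, and the part of the shared bases in the *His3.3A* values was not tested. For *His2Av*, 4 of the 5 AcfC embryos (655 to 760 CPM) lay above all wild-type embryos (599.9 to 665 CPM), with a log2 fold change of 0.19 (SE 0.049, adjusted p = 0.033). Its call was lost without AcfC replicate 1 of that stage (adjusted p = 0.10).

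*His4r* and *His3.3B* had higher means in AcfC before ZGA as well, without passing the test. *His4r* had a log2 fold change of 0.20 (SE 0.067, adjusted p = 0.10, just above the threshold), with 3 of 5 AcfC embryos above all wild-type embryos, and *His3.3B* had 0.15 (SE 0.055, adjusted p = 0.131). DESeq2 called these genes as well as *His2Av* and *His3.3A*, 4 in all, where it called 1062 of the 7303 genes (14.5%; 8.12% higher). *BigH1* and *HmgD* differed by 0.047 (SE 0.051, adjusted p = 0.61) and 0.10 (SE 0.053, adjusted p = 0.253) on the log2 scale. With 19 reads over 11 embryos, *HmgZ* could not show a difference at this depth (log2 fold change 0.28, SE 0.87). *cid* had a lower mean in AcfC (42.3 ± 9.68 against 55.0 ± 13.1 CPM; log2 fold change −0.38, SE 0.18, adjusted p = 0.203), and the embryos overlapped.

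The count of called genes of the 8 depended on the embryos used. With wild-type replicate 3 left out it was 6 (*HmgD*, *His2Av*, *His3.3A*, *His3.3B* and *His4r* higher, *cid* lower), and the count over all genes was then 1842 of 7194 (25.6%). With AcfC replicate 3 left out it was 4, with *His4r* (0.21, adjusted p = 0.098) and *cid* (−0.50, adjusted p = 0.0868) added, and 1137 of 7196 genes were called (15.8%). With AcfC replicate 5 left out *His4r* was added (0.22, adjusted p = 0.0422), among 927 of 7214 genes called (12.9%). Without AcfC replicate 1, 475 of 7191 genes were called (6.61%). No library index is used again among replicates 1 to 3 or among replicates 4 to 6, whereas the same indexes appear in both, so that these sets may be separate library batches. Within replicates 1 to 3, with 2 AcfC embryos, *His3.3A* had a log2 fold change of 0.35 (adjusted p = 0.302) and *His2Av* of 0.17 (adjusted p = 0.507), and none of the 8 was among the 52 of 7238 genes called (0.718%). Within replicates 4 to 6, where 943 of 7214 genes were called (13.1%), the values were 0.33 (adjusted p = 0.0272) and 0.21 (adjusted p = 0.0899), and *cid* was also called there (−0.62, adjusted p = 0.0127). At Stage 3 the 10 maternal markers summed to 7523 to 8078 CPM in AcfC and 6890 to 7494 CPM in wild type, without overlap. By gene, edgeR called *pgc* and *gcl* higher and did not call the other 8, with a median log2 fold change of 0.078. *png* had −0.43 (adjusted p = 0.117), and DESeq2 called 3 of the 10 higher and 1 lower. Over all genes edgeR called 12.0% and DESeq2 14.5%. The summed level of the zygotic markers was 0.97 to 1.94 CPM in wild type except for replicate 3 (19.3 CPM), and 2.20, 3.71, 3.74, 25.2 and 28.2 CPM in AcfC. The AcfC embryos at 25.2 and 28.2 CPM were replicates 4 and 1. Of the 5 AcfC embryos compared, they had the most *His2Av* (760 and 757 CPM) and the least *cid* (34.4 and 34.3 CPM). Wild-type replicate 3 likewise had the most *His2Av* (665 CPM) and the least *cid* (33.1 CPM) of its group. The part of these differences in the results on the 8 genes was not tested.

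**Figure D5:**
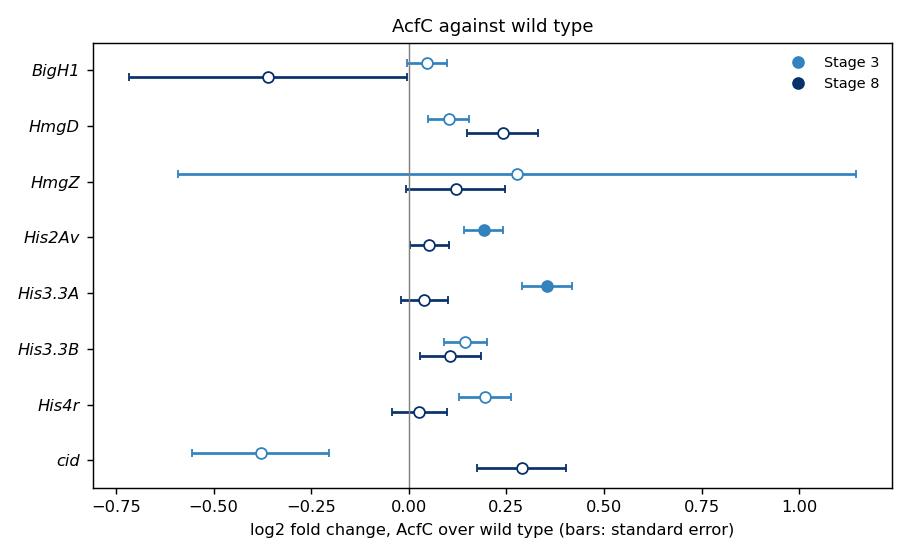
Log2 fold change of the 8 genes, AcfC over wild type, at Stage 3 and Stage 8 (edgeR; bars are standard errors; filled points have an adjusted p under 0.1). Only *His3.3A* (0.35) and *His2Av* (0.19) at Stage 3 are filled, and the Stage 8 values lie between −0.36 and 0.29.

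After ZGA, none of the 8 genes was called between AcfC and wild type by edgeR or by DESeq2, and 2 of them had an unadjusted p under 0.05 in edgeR. Of all genes tested, 404 of 9448 (4.28%; 2.22% higher and 2.05% lower) were called, and DESeq2 called 653 (6.91%), so that a count of 0 among 8 is near that background. The median log2 fold change of the 8 genes was 0.079, against 0.014 over all genes. *cid* had 24.0 to 36.5 CPM in wild type and 30.2 to 41.9 CPM in AcfC, with 3 AcfC embryos above all wild-type embryos (log2 fold change 0.29, SE 0.11, adjusted p = 0.228). *HmgD* had 1272 to 1764 CPM in wild type and 1540 to 2100 CPM in AcfC, also with 3 AcfC embryos above the wild-type range (0.24, SE 0.09, adjusted p = 0.202). These were the genes with an unadjusted p under 0.05. *BigH1* had the lowest value, −0.36, but with a standard error of 0.36. Within replicates 1 to 3 it was 0.26 (adjusted p = 0.872) and within replicates 4 to 6 −1.28 (adjusted p = 0.256). *HmgZ*, *His2Av*, *His3.3A*, *His3.3B* and *His4r* lay between 0.028 and 0.12 with standard errors of 0.049 to 0.13. The AcfC embryos spread more than wild type for *HmgZ*, where replicates 1, 5 and 6 (280.2, 315 and 336 CPM) stood above all wild-type embryos and replicates 2, 3 and 4 were at 211 to 217 CPM. The summed level of the zygotic markers was 1431 to 1917 CPM in wild type and 1710 to 2754 CPM in AcfC at that stage, and its part in these values was not tested.

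The genotype-by-stage interaction asks whether the effect of the deletion differs between the stages. *His3.3A* was the 1 gene of 8 called (log2 difference −0.30, SE 0.089, adjusted p = 0.0947), since AcfC was higher by 0.35 before ZGA and by 0.04 after it. Of all genes, 237 of 8698 (2.72%) were called, 1.48% lower and 1.24% higher. The call is at the edge of the threshold and was lost in 17 of 23 fits that left out an embryo each, with adjusted p up to 0.209. It was kept without replicate 3 or 4 of wild type at Stage 3, replicate 2 of wild type at Stage 8, replicate 3 of AcfC at Stage 3 and replicate 2 or 3 of AcfC at Stage 8. It was also lost with the index set as a covariate (adjusted p = 0.111). *cid* had the largest positive difference, 0.68 (SE 0.22, unadjusted p = 0.00575, adjusted p = 0.132), with a lower mean in AcfC before ZGA and a higher mean after it. DESeq2 called it (0.66, adjusted p = 0.0609) among 579 of the 8698 genes (6.66%; 2.69% higher), edgeR called it without replicate 3 of wild type (0.77, adjusted p = 0.0206) or of AcfC (0.78, adjusted p = 0.0519) at Stage 3, and over the alternatives other than single embryos left out the adjusted p of *cid* ran from 0.0227 to 0.969. The other 6 differences had adjusted p of 0.394 or more, but *BigH1* was called within replicates 4 to 6 (−1.33, adjusted p = 0.0341) and not within replicates 1 to 3 (0.17).

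Embryos of a group varied unequally from gene to gene. At Stage 3 the coefficient of variation of *cid* was 23.8% in wild type and 22.9% in AcfC, 4.55 and 3.56 times what counting alone gives. The lowest and highest wild-type embryos of *cid* differed 2.01-fold. The other genes with more than 100 CPM varied by 3.79 to 8.05% at that stage. At Stage 8 *cid* varied by 14.1% and 12.2%, while *BigH1* varied by 34.5% in wild type and 59.0% in AcfC, where counting gives 15.4% and 17.5%. *HmgD* varied by 11.6% and 13.7% at Stage 8, up from 6.42% and 5.71% at Stage 3. Over the 23 embryos, the deviations of log2 levels from the group means were correlated at −0.67 between *BigH1* and *His3.3B*, 0.56 between *His2Av* and *His4r* and 0.50 between *BigH1* and *HmgD*. These correlations are descriptions over embryos that share library depth and scaling.

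The genes whose levels followed *BigH1*, *HmgD*, *HmgZ* and *cid* most closely were looked for among 6064 genes, by the Pearson correlation of log2(CPM + 1) over 23 embryos, and are given as descriptions, since the step between the stages dominates them. Nearest to *BigH1* were *CG9436* (r = 0.997), *BicD* (0.995), which encodes an adaptor for RNA transport by dynein, and *CG31689* (0.993). Nearest to *HmgD* were *miple2* (0.987), a growth factor of the midkine family, *Spase25* (0.985), a signal peptidase subunit, and *ergic53* (0.985), a cargo receptor of the secretory pathway. Nearest to *HmgZ* were *dachs* (0.999), an atypical myosin, *hth* (0.999), a homeodomain factor, and *Dscam1* (0.998), a neuronal adhesion receptor. Nearest to *cid* were *sut1* (0.946), a sugar transporter, *CG1663* (0.937) and *FBXO11* (0.917), an F-box protein. The deviations from the group means were correlated at 0.81 to 0.90 with *BigH1*, 0.53 to 0.86 with *HmgD*, 0.55 to 0.75 with *HmgZ* and 0.81 to 0.93 with *cid* for these genes. With the Spearman correlation, 1 of these 12 genes, *dachs*, was again among the nearest 3.

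Of 22 factors that place or remove histones, 12 were called higher and 7 lower at Stage 8 in wild type, with a median log2 fold change of 0.21. In AcfC 9 were called higher and 6 lower, with a median of 0.091. The shares over all genes were 48.5% higher and 39.6% lower in wild type and 51.5% and 34.7% in AcfC. The wild-type counts lie near these shares. In AcfC both counts lie below them, with 7 of the 22 not called, while DESeq2 called 13 higher and 6 lower there (53.8% of all genes higher). For H3.3, subunits of its HIRA chaperone complex fell. On the log2 scale *yem* changed by −2.95 (SE 0.059) in wild type and −2.42 (SE 0.083) in AcfC, and *Hira* by −3.23 (SE 0.099) and −2.71 (SE 0.19). *XNP*, the ATRX homologue that acts in H3.3 assembly, rose by 1.31 in wild type (SE 0.064) and 1.23 in AcfC (SE 0.085). The H3.3 genes themselves rose, as given above. *YL-1* and *MRG15*, subunits of the Tip60 complex, which exchanges H2Av, rose by 1.13 (SE 0.097) and 1.09 (SE 0.077) in wild type and by 0.99 (SE 0.11) and 0.83 (SE 0.095) in AcfC. Of the same list, *Gas41* (1.35 and 1.15) and *pont* (0.80 and 0.49) also rose in both genotypes. *Tip60* itself was called in neither (0.054 and 0.19). *dom* (0.12 and −0.025) and *rept* (0.25 and −0.088) were called higher in wild type only. At Stage 3, 3 of the 22 were called higher in AcfC, among them *Caf1-55* (0.21), a subunit of the replication-coupled chaperone CAF-1, and *Dek* (0.15), an H3.3 chaperone, and none of the 22 lower in edgeR (6.35% and 5.66% of all genes), while DESeq2 called 4 higher and 1 lower and 6 had an unadjusted p under 0.05. At Stage 8, *yem* was called higher in AcfC (0.53, SE 0.088, adjusted p = 0.00648), and *rept* (−0.40) and *pont* (−0.23), the Reptin and Pontin ATPases of the Tip60 complex, were called lower. *yem* (0.53, adjusted p = 0.00224) and *pont* (−0.31, adjusted p = 0.0409) were also called in the interaction.

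Of 10 kinetochore and centromere genes, 4 were higher and 5 lower at Stage 8 in wild type, and 5 were higher and 4 lower in AcfC, with medians of −0.38 and 0.027, again beside shares of 88.1% and 86.2% of all genes called. *cal1*, the chaperone that loads CID, fell by 1.37 (SE 0.058) in wild type and by 1.42 (SE 0.068) in AcfC, and *Cenp-C*, the inner kinetochore protein bound to CID, fell by 0.97 (SE 0.063) and 0.85 (SE 0.077). *Nuf2*, of the outer kinetochore, rose by 1.19 (SE 0.078) and 1.16 (SE 0.08). Between genotypes, *Spc105R* was called higher in AcfC at Stage 8 (0.37, SE 0.095, adjusted p = 0.0581). At Stage 3 edgeR called 0 of the 10, with 2 at an unadjusted p under 0.05, and DESeq2 called 2. Over all genes edgeR called 12.0% at Stage 3 and 4.28% at Stage 8, and DESeq2 14.5% at Stage 3.

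Of the other HMG and architectural proteins, 8 were in the table and 6 were tested at Stage 3 and between stages. Between the stages 5 of these rose (medians over the 6 of 1.5 and 1.42, with 48.5% and 51.5% of all genes called higher), among them the gene of the heterochromatin protein HP1a (1.79 in wild type and 1.62 in AcfC) and *D1*, an AT-hook protein of satellite DNA (1.61 and 1.47), while *Ssrp*, an HMG-box subunit of FACT, fell by 0.39 and 0.26. At Stage 3, 4 of the 6 were called higher in AcfC by both edgeR (6.35% of all genes) and DESeq2 (8.12%), with a median over the 6 of 0.21 against −0.0031 over all genes. They were *D1* (0.21), *Dsp1*, an HMG-box corepressor (0.38), the HP1a gene (0.20) and *Df31*, a histone-binding decondensation factor (0.22). At Stage 8 *Df31* was called higher in AcfC (0.18, SE 0.042, adjusted p = 0.0457). The testis HMG genes *tHMG1* and *tHMG2* had no reads at Stage 3.

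Of 9 genes for the processing of histone mRNA, 2 were called higher and 5 lower at Stage 8 in both genotypes. Their medians were −0.13 in wild type and −0.16 in AcfC. Over all genes, 48.5% were called higher and 39.6% lower in wild type, and 51.5% and 34.7% in AcfC. *Slbp*, which encodes the stem-loop binding protein, rose by 1.35 (SE 0.066) in wild type and 1.21 (SE 0.097) in AcfC, and *mxc*, the organizer of the histone locus body, fell by 1.20 (SE 0.087) and 0.88 (SE 0.096). edgeR called 0 of the 9 between genotypes at Stage 3 and at Stage 8, with 1 at an unadjusted p under 0.05 at each stage. DESeq2 called 0 and 1. Over all genes edgeR called 12.0% and 4.28% at these stages, and DESeq2 14.5% and 6.91%. Of the replicative histone genes, 108 of 111 had 0 reads in all 23 embryos compared, and 98.8% of the 14551 reads fell on *His2B:CG33868*. Near-identical copies cannot be told apart by uniquely placed reads, so no level of the replicative histones is compared with the variants. *His2B:CG33868* itself had medians of 66.4 CPM in wild type and 69.4 CPM in AcfC at Stage 3, and 163 and 289 CPM at Stage 8. The Stage 8 embryos overlapped (138 to 276 CPM in wild type, 123 to 533 in AcfC). edgeR did not call the gene there (log2 fold change 0.70, SE 0.30, adjusted p = 0.270). The 5 sperm chromatin genes had at most 1 read in any embryo of Stage 3, and *Mst77F*, a protamine-like gene, passed the filter between the stages almost only through its Stage 8 embryos, so no change is given. Of 4 testis markers, *bam*, which also acts in the female germline, was the 1 with reads at Stage 3, and it was called lower at Stage 8 (−5.44 in wild type and −5.46 in AcfC).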

How the data were processed

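Single-embryo RNA was depleted of rRNA and sequenced from nondirectional libraries. The authors mapped the reads with STAR 2.5.0a and deposited raw counts per gene for 17370 genes in 24 embryos, without normalization. Groups and replicate numbers came from the sample labels. The study does not name the embryo it left out; its mean counts per gene are those without AcfC replicate 2 of Stage 3. Nothing ties a number to a parent or day. Genes were named and placed with the Ensembl release 115 annotation of BDGP6, which lists 17155 of them, 13728 protein-coding. The annotation release used for counting was older, on the same assembly. ERCC spike-ins are not used here.

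In R 4.3.3, a protein-coding gene was tested if fewer than 50% of the embryos of a comparison had 0 counts of it. Each comparison was fitted on its own in edgeR 4.0.16 (quasi-likelihood, two-sided, TMM scaling, prior count 0.125). The interaction was fitted over 4 groups. P-values were adjusted over all genes tested (Benjamini-Hochberg), and genes under 0.1 were called. Log2 fold changes come from these fits, and CPM from 1 TMM scaling over 24 embryos, so their ratios differ slightly. The SE is the log2 coefficient divided by the square root of F. Alternatives were DESeq2 1.42.0, other filters, scalings and gene sets, all 6 AcfC embryos, 1 fit of 4 groups, a term for the index set or for the replicate number, each index set alone, and each embryo left out.

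The 8 genes and the lists of related genes were chosen with earlier results of these data known. Named are all 8, *Acf*, from each list at most 3 genes per comparison and direction with the smallest adjusted p, and the 3 genes most correlated with *BigH1*, *HmgD*, *HmgZ* and *cid* (mean of at least 10 CPM). *Df31* at Stage 3, *YL-1* in wild type, *Nepl3*, *tHMG1* and *tHMG2* fall outside that rule and were added after their values were seen. The same holds for *png* at Stage 3 and *His2B:CG33868* between genotypes. It also holds between the stages for *Gas41*, *Tip60*, *dom* and *rept*, and for *pont* in AcfC. *Top2* and *wg* were not analysed here. Embryos of a group differed by more than counting error (chi-square per degree of freedom 3.90 to 58.8 over 60 pairs).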

Additional observations from a re-analysis of the deposited data

Results flagged for a closer look

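Among the 5 AcfC embryos of Stage 3, *HmgD* in replicate 5 (631.8 CPM) lay below the other embryos by 71.3% of the range of the group. *His3.3B* in replicate 4 (709.1 CPM) lay above the others by 79.7% of its range. Both gaps are past the Dixon limit, which chance passes in about 1 in 20 groups. The limit was applied to each of the 8 genes in each of the 4 groups, so that gaps past it can come by chance. The genotype effect on *His3.3A* differed between stages by −0.30 on the log2 scale (adjusted p = 0.0947 from the edgeR interaction), a call that most fits with an embryo left out did not keep. The AcfC embryo of Stage 3 that the comparisons do not use, replicate 2, lay above every wild-type embryo of Stage 3 for 5 of the 8 genes. It had 5.07 CPM of *HmgZ* from 31 reads, where the highest wild-type embryo had 0.52, and 770.3 CPM of *His2Av* against at most 665. It had 134.5 CPM of *His3.3A* against at most 119.6, 678.5 CPM of *His3.3B* against at most 647, and 212.1 CPM of *His4r* against at most 209.8. Its zygotic markers summed to 51.7 CPM, above the 0.97 to 28.2 CPM of the other embryos of that stage.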

How the results depend on the processing

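Between stages, no alternative ended a call among the 8 genes, and the only sign that turned was that of *cid* in AcfC (0.090 with upper-quartile scaling, and −0.33 with library totals, which gained a call). Other scalings moved the median of all genes between stages by 0.143 (DESeq2 size factors), 0.266 (upper quartile) and −0.162 (library totals) in wild type, and by 0.108, 0.266 and −0.150 in AcfC. Between genotypes at Stage 3, the 877 genes became 498 at an adjusted p under 0.05, 1341 with all 6 AcfC embryos, 418 in 1 fit of 4 groups and 52 within replicates 1 to 3. Of the 8 genes, 4 were then called by DESeq2, 4 with all genes of the table, 4 with all 6 AcfC embryos and 0 within replicates 1 to 3, and *HmgZ* turned to −0.036 within replicates 4 to 6. At Stage 8 the 404 genes became 178 under 0.05, 653 with DESeq2, 950 in 1 fit of 4 groups, 51 within replicates 1 to 3 and 2 within replicates 4 to 6. In the 1 fit, 1 of the 8 genes was called (*HmgD*, 0.25, adjusted p = 0.0672). Within replicates 1 to 3, *BigH1* turned to 0.26, *His3.3B* to −0.062 and *His4r* to −0.047, and within replicates 4 to 6 *His3.3A* turned to −0.087. The 237 genes of the interaction became 135 under 0.05, 579 with DESeq2, 447 with all 6 AcfC embryos and 21 within replicates 1 to 3. Of the 8 genes, 0 were called in the interaction under 0.05, without a filter, with library totals, with the index set as covariate or within replicates 1 to 3, and 2 with DESeq2, with all 6 AcfC embryos or within replicates 4 to 6. There, *BigH1* turned to 0.17 within replicates 1 to 3 and was called within replicates 4 to 6 (−1.33, adjusted p = 0.0341), and *HmgZ* to 0.22 and *His3.3B* to 0.13 within replicates 4 to 6. The causes were not tested.

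With each embryo left out in turn, 475 to 1842 genes (1 to 6 of the 8) were called at Stage 3, 193 to 449 (0 of the 8) at Stage 8, and 153 to 542 (0 to 2 of the 8) in the interaction. The extremes were reached without AcfC replicate 1 and wild-type replicate 3 of Stage 3, wild-type replicate 4 and AcfC replicate 4 of Stage 8, and AcfC replicate 4 and wild-type replicate 3 of Stage 3, respectively. Between stages, 7070 to 7822 genes (8 of the 8) in wild type and 6760 to 7480 (7 of the 8) in AcfC were called. The sign turned within −0.054 to 0.62 for *HmgZ* at Stage 3, −0.017 to 0.056 for *His4r* at Stage 8, and −0.53 to 0.14 for *HmgZ* and −0.078 to 0.010 for *His3.3B* in the interaction. Over all log2 fold changes of the 8 genes, 515 values with an embryo left out kept direction and call, 18 lost and 9 gained a call and 10 changed sign. Of the other alternatives, 501 kept both, 10 lost and 15 gained a call and 9 changed sign.

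Deviations of same-numbered embryos from their group means were correlated at −0.558 to 0.291 over 22 pairs. With so few embryos per group, these values cannot tell whether a number marks a shared day or batch. With the replicate number as a block, 312 genes and 1 of the 8 were called at Stage 3 (*His2Av*, 0.18, adjusted p = 0.167, was not), 252 genes and 0 of the 8 at Stage 8, and 0 of the 8 in the interaction (*His3.3A*, −0.30, adjusted p = 0.177). The block changed no call of the 8 between stages. Depth limits *HmgZ* at Stage 3 and *BigH1* at Stage 8, which rest on few reads per embryo.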
